A study of Arabidopsis thaliana with 6 samples.

Results

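MADS genes form one of the large families among the transcription factor (TF) genes profiled here by quantitative RT-PCR during somatic embryogenesis (SE) in Arabidopsis thaliana. The family was taken as all rows of the deposited Ct table whose TF family label reads MADS, which gave 105 of 1880 rows. The groups were 6: the tanmei mutant at 0 d, 5 d and 10 d of culture, and the Col-0 accession at 0 d, 5 d and 10 d. The mutant carries the tan1-2 allele of TANMEI/EMB2757, a gene of a WD repeat protein, and does not form somatic embryos, whereas Col-0 is the wild type and is highly embryogenic. At 0 d the samples were freshly isolated immature zygotic embryos at the late cotyledonary stage, taken 10 to 12 days after pollination. At 5 d and 10 d they were the same kind of explants grown on solid medium with 5 µM 2,4-D, a synthetic auxin. The submitters call the Col-0 cultures early (5 d) and advanced (10 d) embryogenic and all tanmei samples non-embryogenic, so in culture the genotype and the kind of tissue cannot be told apart.

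MADS-domain proteins bind DNA as dimers and as larger complexes. Type II genes (MIKC) act in flowering time, floral organ identity, fruit, root and pollen, and type I genes (the alpha, beta and gamma classes) are best known from the female gametophyte and the endosperm. AGL15 and AGL18 are the members most closely tied to embryos, since overexpression of AGL15 promotes somatic embryo formation.

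Each group had 1 sample in the series, with 1 Ct per row that the authors averaged over up to 3 replicates. The Ct counts the cycles until fluorescence passes a set threshold, so an earlier Ct by 1 cycle is a 2-fold higher transcript level at full efficiency. For comparisons, the level of a row was the median Ct of its block minus its own Ct, a block being one of 5 equal runs of rows in the table. Levels are on a log2 scale, with an empty Ct set to 40. All MADS rows lie in block 4. No replicate values were used, so no difference below was tested against replicate error, and rows are described only by whether they passed 2-fold or 10-fold. In bulk tissue, fewer cells of a type and less RNA per cell cannot be told apart. Among the embryo markers, ABI3 had a Ct of 19.3 in tanmei explants and 18.1 in Col-0 explants. Its row was linked to ABI3 itself. FUS3, LEC2 and WRI1, by deposited codes without a link, lay between 18.3 and 26.9 in tanmei explants and between 19.7 and 28.9 in Col-0 explants. The row with the code of LEC1 had 23.2 and 23.7, but it is unsure, since CCAAT-HAP2 rows shortly before it were linked to genes of the C3H family. The row with the code of ABI5 was itself linked to another gene and is not used. Of the endosperm and seed coat markers AGL62, PHE1, AGL36, AGL80, TT16 and STK, which are all MADS genes, AGL62 alone could be tied to a measured profile, given below.

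The gene codes of single MADS rows could not be taken at face value. The study's table of genes changed in Col-0 cultures lists 38 MADS genes, and 26 of them could be linked to a deposited row by their values in the 6 groups, with the running order of both lists respected. Of these, 22 fell on rows labelled MADS and 4 on rows labelled MYB, and 0 fell on the row that carries the same code. No row labelled MADS was linked to a gene of another family. Rows are therefore called by their deposited code, and a gene name is given as the linked gene where there is a link. For the 83 MADS rows without a link, the gene name of the deposited code is given only as "the code of" that gene. Since 0 of the 26 linked genes lay on the row with their own code, such a row is not taken to measure the gene named. AGL29, AGL78, AGL89, AGL100 and SEP3 were linked to other rows, so the rows with their codes are not taken to measure them. The linked genes were chosen by the study for their change in Col-0, so their Col-0 changes are no independent evidence.

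The label occupies 9 stretches of alternate rows. In 7 of them, with 82 rows and 21 links, the median Ct over all values was 34.5. In rows 1223 to 1243 and 1269 to 1291, with 23 rows and 1 link, it was 27.5. This split was made after the values were seen. The codes AT1G17310, AT1G24260, AT1G31140 and AT1G59810 stand in these 2 stretches, but their genes were linked to rows outside them. Row 1221, the alternate row just before, was linked to HSFA6A, a gene of the HSF family. The 23 rows may therefore hold values of genes of other families, which was not tested. They are counted in the family counts and medians below, and the comparisons without them are given at the end.

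**Figure D1:**
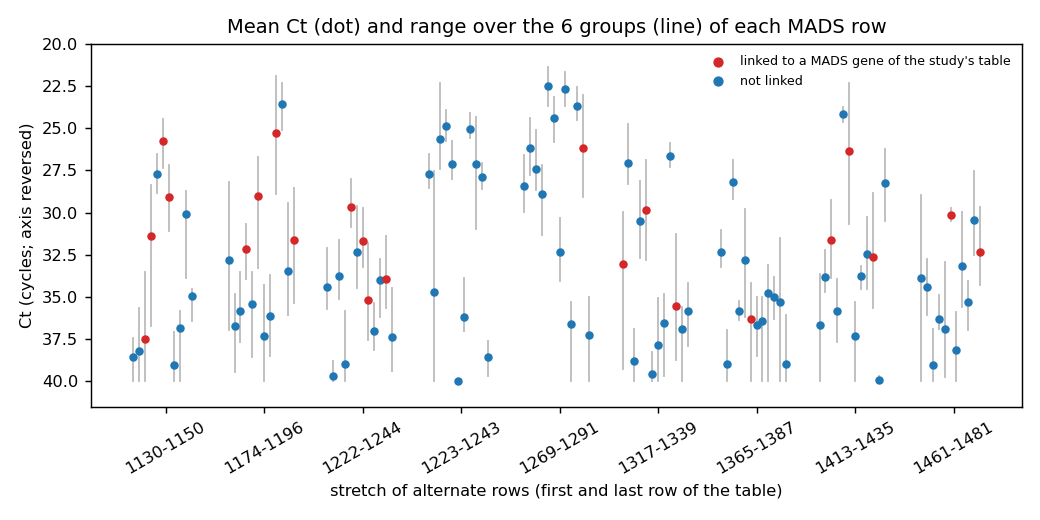
Each dot is the mean Ct of 1 MADS row over the 6 groups (vertical axis in cycles, reversed so that higher levels are up, no Ct drawn as 40) and each line its lowest to highest Ct; rows are arranged by stretch of alternate rows. The 2 stretches with a median Ct of 27.5 stand above the 7 others, whose median was 34.5, and hold 1 of the 22 linked rows.

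MADS was the family with the latest Ct, although the Ct of different primer pairs also depends on their efficiency. Over all values their median Ct was 33.9, the highest among 24 family labels with at least 20 rows, ahead of MYB at 31.1. The median Ct of the 105 rows was 33.7, 34.7 and 33.9 in tanmei at 0, 5 and 10 d, and 33.9, 34.1 and 31.9 in Col-0 at 0, 5 and 10 d. The other 271 rows of the block had medians of 29.5, 30.1 and 30.02 in tanmei and 31.0, 30.4 and 29.5 in Col-0, so MADS rows came later than their block neighbours in every group. The distance was smallest in Col-0 at 10 d, where 40 MADS rows (38.1%) had a Ct below 30, against 28 to 33 in the other 5 groups. Rows of other families also had their largest share below 30 there, 72.8%, against 64.7% to 69.6% in the other groups. For the other rows of the block the share was 52.8% in Col-0 at 10 d and in tanmei at 0 d, and 47.6% to 49.8% elsewhere.

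**Figure D2:**
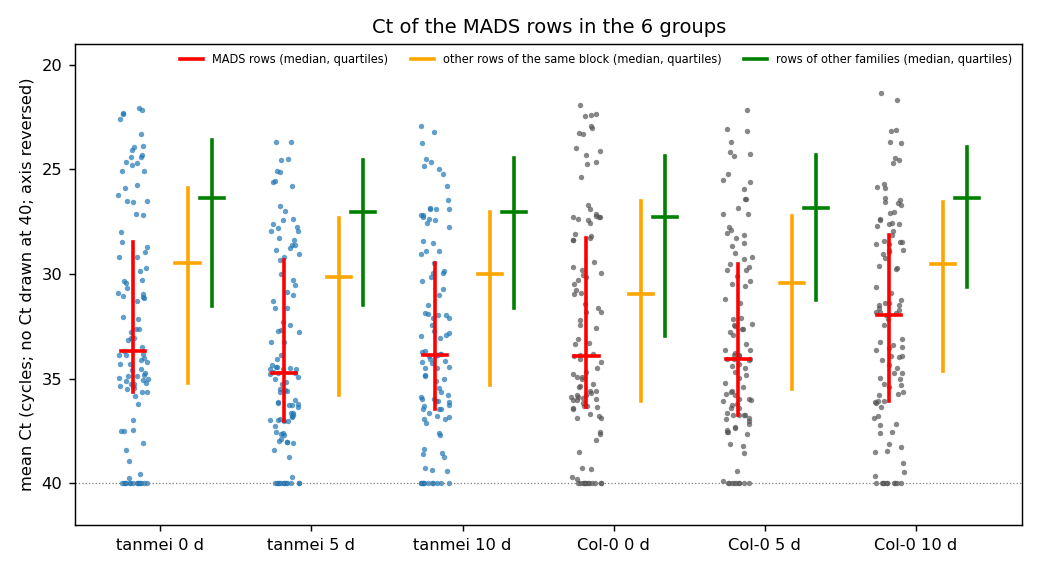
Mean Ct of the MADS rows (dots; vertical axis in cycles, reversed, no Ct drawn at 40) in each of the 6 groups, with medians and quartiles of MADS rows, of the other 271 rows of the block and of the 1775 rows of other families. MADS medians lie between 31.9 and 34.7 cycles, below both comparison sets in every group.

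Most rows were nevertheless detected. A Ct was listed for 91, 93 and 95 rows in tanmei at 0, 5 and 10 d, and for 93, 96 and 96 rows in Col-0. A Ct below 40 in all 6 groups was found for 77 rows (73.3%), against 79.3% of the other rows of the block and 86.6% of rows of other families. The row AT1G24260, with the code of SEP3, had no Ct in any group. A Ct in Col-0 and none in tanmei was found in 3 rows. AT5G04640, the code of AGL99, had a Ct of 35.9, 36.2 and 36.8 in Col-0 at 0, 5 and 10 d. AT2G45660, the code of SOC1, had 37.9 and 36.1 in Col-0 at 0 and 5 d, and AT4G09960, the code of STK, had 39.7 in Col-0 at 10 d. All of these are late, and 0 rows gave a Ct in tanmei alone.

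The number of replicates behind a value could be read from its decimals in part. Decimals that a mean of 3 gives, and a single value or a mean of 2 does not, were seen in 67.5% of MADS values with a Ct below 30, in 62.2% of those from 30 to 35 and in 18.6% of the 183 values from 35 to 40. For the remaining values the number stays unknown.

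At the top of the range, AT1G47760, the code of AGL102, averaged a level of 8.94 above the block median, with a Ct of 22.0, 23.7 and 23.2 in tanmei and 22.4, 22.1 and 21.4 in Col-0. AT1G59810 (8.73), AT5G41200 (7.83), AT1G60880 (7.73) and AT3G54340 (7.25) came next. Of these 5, AT1G47760, AT1G59810 and AT1G60880 lie in the stretches of low Ct. At the bottom among rows with a Ct in all 6 groups were AT1G31140 (-7.12), AT5G65330 (-5.94), AT5G65050 (-5.61), AT4G36590 (-5.47) and AT5G27810 (-5.30). Rows of the family moved by a median of 3.58 between their highest and lowest level over the 6 groups, against 3.24 for the other rows of the block. The steadiest was AT1G29960, with a range of 0.43, followed by AT4G37940, linked to AGL29, with 0.80.

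Among linked genes, the embryo-expressed AGL18, the closest relative of AGL15, had an early Ct. Its row AT5G26870 had a Ct of 24.4, 25.1 and 25.002 in tanmei at 0, 5 and 10 d, against 27.4, 26.9 and 25.7 in Col-0. The tanmei values were the earlier ones at all 3 times. On the level scale tanmei was higher by 2.01 at 0 d, 2.32 at 5 d and 2.10 at 10 d. Against the block median, the level within each genotype rose by at most 0.44 from its explant. Relative to UBQ, the study's reference gene, changes in this block shift by 1.16 and 1.07 in tanmei and by 1.73 and 1.91 in Col-0 at 5 and 10 d. With UBQ the AGL18 row was therefore higher than its explant by more than 2-fold in both genotypes at both times. AGL15 itself was not among the linked genes. By its code it falls between FLC and PI, which were linked to AT5G40220 and AT5G49420 in another stretch. The row that carries its code, AT5G13790, stands between rows linked to AGL29 and SEP2, so it is not taken to measure AGL15. That row had a Ct of 29.2, 30.3 and 31.5 in tanmei and 31.6, 32.5 and 27.5 in Col-0. Its tanmei minus Col-0 difference was 2.75 at 5 d and -2.53 at 10 d.

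Of the flowering repressors of the FLC clade, FLC and MAF4 were the linked ones. FLC, which is silenced by vernalization, was linked to AT5G40220, with a Ct of 24.7, 27.4 and 28.9 in tanmei and 21.9, 24.4 and 24.5 in Col-0. It was lower in tanmei at each time, by differences of -3.68, -2.49 and -3.00, and lower in culture than in the explant of the same genotype. MAF4, an FLC relative, was linked to AT1G60920 in one of the stretches of low Ct. This is the only link in those stretches, and the code of MAF4 stands on row 1878 under another label. The MAF4 link is therefore less sure than the others. Its Ct was 25.1, 29.05 and 28.4 in tanmei and 23.02, 25.6 and 25.9 in Col-0, again lower in tanmei at each time (-2.99, -2.88 and -1.14). In both rows the Col-0 explants had the earliest Ct and the tanmei cultures the latest. AGL24, a promoter of flowering, was linked to AT5G37415, with a Ct of 30.7, 32.3 and 31.8 in tanmei and 33.9, 32.6 and 31.5 in Col-0. Its level in tanmei was higher at 0 d by 2.33, while the differences at 5 d and 10 d were 0.89 and 1.03, with the value at 10 d turning to -0.05 relative to UBQ, the study's reference gene. AGL42, a relative of SOC1, was linked to AT1G19510, a row labelled MYB, with no Ct in either explant. In culture its Ct was 35.6 and 35.02 in tanmei and 35.4 and 30.7 in Col-0 at 5 and 10 d.

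Among floral organ identity genes, SEP3, a class E cofactor of the organ identity proteins, was linked to AT1G71692, with a Ct of 32.1, 27.9 and 26.9 in tanmei and 31.8, 32.8 and 27.6 in Col-0. The tanmei minus Col-0 difference was -1.25 at 0 d, 5.40 at 5 d and 2.19 at 10 d, the widest at 5 d. At 5 d the change from the explant was 5.32 in tanmei and -1.33 in Col-0 (0.41 in Col-0 relative to UBQ). FUL, a gene of fruit valves and flowering, was linked to AT1G18960, a row labelled MYB. Its Ct of 31.0, 27.3 and 27.6 in tanmei, against 34.5, 32.0 and 30.5 in Col-0, put tanmei higher by 2.57, 5.21 and 4.26.

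Class B genes, which specify petals and stamens, had changes of opposite sign. PI was linked to AT5G49420, with a Ct of 35.4, 31.6 and 29.5 in tanmei and 33.3, 31.4 and 28.6 in Col-0. Its level was higher than in the explant at both times, by 4.83 and 6.83 in tanmei and by 1.55 and 3.39 in Col-0. AP3, linked to AT5G26630, had a Ct of 28.7, 32.8 and 29.8 in tanmei and 28.4, 36.8 and 31.9 in Col-0. It passed through its lowest level at 5 d in both genotypes, with changes from the explant of -2.97 in tanmei and -8.77 in Col-0, the lowest change at 5 d among MADS rows with a Ct in both Col-0 groups. SEP2, another class E gene, was linked to AT5G15800 and was lower in culture at both times, by changes of -2.65 and -3.02 in tanmei and -4.62 and -3.47 in Col-0.

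In the ovule and fruit group, SHP1 and GOA had changes of opposite sign. SHP1, a gene of the fruit dehiscence zone, was linked to AT5G26950, with a Ct of 31.1, 27.9 and 27.2 in tanmei and 30.7, 29.5 and 28.1 in Col-0. The change at 5 d was 4.27 in tanmei and 0.86 in Col-0. GOA, a B-sister gene of fruit growth, was linked to AT2G03060 and came late in culture, with a Ct of 31.3, 38.8 and 37.6 in tanmei and 32.6, 37.5 and 35.4 in Col-0.

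Of the root-expressed members, AGL21, AGL12 and AGL79 were higher in Col-0 culture than in the Col-0 explant. AGL21, of lateral root development, was linked to AT5G38740, with a Ct of 28.5, 28.4 and 27.4 in tanmei and 33.3, 29.6 and 26.7 in Col-0. Both genotypes reached similar values at 10 d from explants that differed by 3.88, tanmei being higher. AGL12, of the root meristem, was linked to AT3G18650, with a Ct of 31.0, 31.6 and 33.1 in tanmei and 33.9, 31.2 and 29.3 in Col-0. Here the changes at 10 d had opposite signs, -1.14 in tanmei and 3.22 in Col-0. ANR1, of the nitrate response of lateral roots, was linked to AT3G66656. Its Ct was 32.1, 35.7 and 33.9 in tanmei and 30.9, 34.4 and 28.8 in Col-0, which left tanmei lower at 10 d (-3.62). AGL79 was linked to AT5G26580, which had no Ct in either explant, and a Ct of 37.3 and 36.8 in tanmei and 37.3 and 33.5 in Col-0 at 5 and 10 d.

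AGL67, a MIKC* gene expressed in maturing embryos, was linked to AT3G57230. It had a Ct of 22.3, 29.3 and 30.7 in tanmei and 22.9, 26.4 and 26.5 in Col-0, so that the explants differed by -0.31 and all cultures were far later. The changes from the explant were -5.94 and -7.44 in tanmei and -3.89 and -4.92 in Col-0. The value of -7.44 was the lowest change at 10 d in tanmei among MADS rows with a Ct in both groups. ABI3, the embryo marker with a link, had a Ct of 25.7 and 31.0 in tanmei cultures and 18.8 and 19.6 in Col-0 cultures. By deposited codes without a link, FUS3 had 25.8 and 28.2 in tanmei cultures and 20.0 and 21.1 in Col-0 cultures. LEC2 had 32.6 and 33.6 against 27.7 and 27.2, and WRI1 had 23.8 and 23.8 against 20.5 and 21.2. The unsure LEC1 row hardly differed, with 24.8 and 24.5 in tanmei cultures and 24.3 and 24.0 in Col-0 cultures.

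AGL62, a type I gene that delays endosperm cellularization, was linked to AT1G18710, a row labelled MYB. Its Ct of 31.7, 34.4 and 33.5 in tanmei and 33.3, 32.0 and 32.1 in Col-0 is the only endosperm marker value that could be placed, and its part in any other result was not tested. Among other type I genes, AGL100 was linked to AT1G65330, with a Ct of 31.2, 32.4 and 29.9 in tanmei and 39.3, 34.1 and 31.2 in Col-0. The explants differed by 7.17, tanmei being higher, the largest such difference among MADS rows with a Ct in both explants, and the Col-0 explant value lies close to 40. AGL53 and AGL89, linked to AT5G62165 and AT5G65080, were higher in Col-0 culture than in the Col-0 explant (2.32 and 1.93 at 5 d) and lower in tanmei than in Col-0 at 5 d (-3.39 and -2.65) and 10 d (-3.26 and -2.87). The AGL26 row AT5G58890 and the AGL101 row AT5G60910 had their largest changes at 5 d in tanmei, -1.75 and -2.44, and AGL50, linked to AT2G26880, stayed at a Ct of 34.2 or later where it had one. AGL78, linked to AT1G26580 with a MYB label, had a Ct of 38.9, 32.2 and 30.9 in tanmei and 38.5, 32.7 and 32.3 in Col-0, far earlier in culture than in explants of both genotypes.

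**Figure D3:**
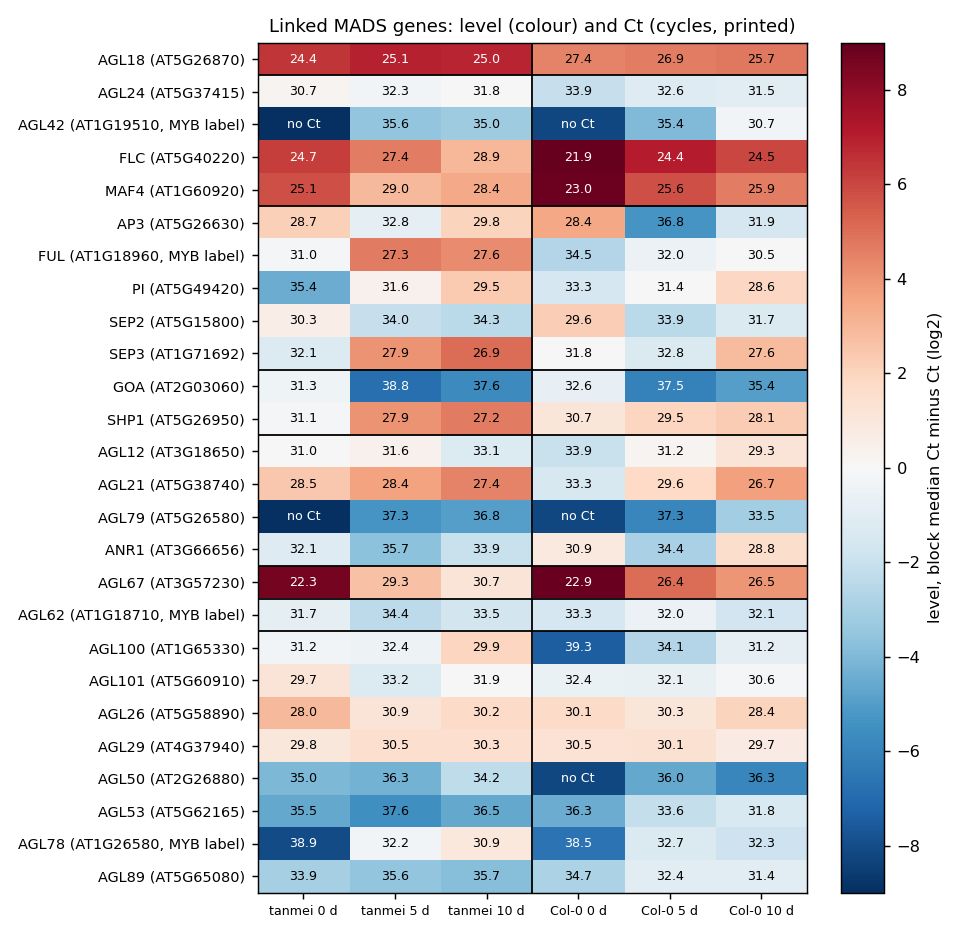
The 26 linked MADS genes by role, with the deposited code of the row in brackets; columns are the 6 groups, printed numbers are mean Ct in cycles and colours the level (block median Ct minus Ct, log2). The FLC row and the less sure MAF4 row are darkest in Col-0 explants, and the AGL67 row in both explants. The SEP3 and FUL rows are at higher levels in tanmei than in Col-0 at 5 d.

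Over the family as a whole, the median change from explant to culture followed that of the block. In tanmei at 5 d, 22 of 99 MADS rows were higher by at least 2-fold (22.2%, against 28.7% of all rows in the table) and 36 were lower (36.4%, against 39.4%), with a median change of -0.51. In Col-0 at 5 d, 21 of 102 rows were higher (20.6%, against 28.9%) and 46 lower (45.1%, against 38%), with a median of -0.64. The other rows of the block had medians of -0.47 in tanmei and -0.64 in Col-0, and the family median lay within 0.26 of that of the block in all 9 comparisons. Of these other rows 31.5% were higher and 38.9% lower in tanmei, and 27.8% higher and 45.5% lower in Col-0. The share of higher rows was thus smaller for MADS in both genotypes. Past 10-fold were 10 rows higher and 6 lower in tanmei (11.6% and 11.1% of all rows), and 4 higher and 16 lower in Col-0 (11.1% and 10.1% of all rows). Of the block's other rows, 42 of 257 were higher and 31 lower by 10-fold in tanmei, and 32 of 255 higher and 30 lower in Col-0.

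At 10 d, 26 of 99 rows in tanmei were higher than in the explant (26.3%, against 31.1%) and 33 lower (33.3%, against 37.4%), median -0.23. In Col-0, 23 of 103 rows were higher (22.3%, against 29%) and 55 lower (53.4%, against 41.1%), median -1.07. The block's other rows again had similar medians, -0.11 in tanmei and -1.15 in Col-0. Past 10-fold were 16 rows higher and 9 lower in tanmei (13.8% and 12.4% of all rows), and 8 higher and 20 lower in Col-0 (12.8% and 11.2% of all rows). These signs hold for levels set against the block median. Relative to UBQ, whose Ct is not a row of the table and was recovered from 110 linked genes, all changes of the block shift by 1.16 and 1.07 in tanmei and by 1.73 and 1.91 in Col-0 at 5 and 10 d, and the family medians turn positive, to 0.65 and 0.84 in tanmei and to 1.10 and 0.84 in Col-0.

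Between 5 d and 10 d, 23 of 98 rows were higher in tanmei (23.5%, against 20% of all rows) and 13 lower (13.3%, against 15.6%), with a median of 0.41. Col-0 had 24 of 100 rows higher (24.0%, against 17.4%) and 27 lower (27.0%, against 18.1%), with a median of -0.29 that turns to 0.26 with the whole table as centre. Few rows moved by 10-fold in this interval, 2 higher and 1 lower in tanmei (2.83% of all rows in each direction) and 5 higher and 4 lower in Col-0 (2.2% of all rows in each direction).

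Large changes were also seen in rows without a link. AT5G48670, the code of AGL80, had a Ct of 30.4, 34.4 and 36.1 in tanmei and 29.4, 36.0 and 34.5 in Col-0. AT1G17310, in a stretch of low Ct, carries the code of AGL100, although AGL100 itself was linked to AT1G65330. AT1G17310 had a Ct of 33.1 and none in culture in tanmei, and 27.5, 35.8 and 31.9 in Col-0. Both AT5G48670 and AT1G17310 were much later in culture than in explants, with changes at 5 d in Col-0 of -6.91 and -8.61. AT4G11880, the code of AGL14, went the other way, with no Ct, 34.4 and 32.1 in tanmei and 35.01, 32.7 and 28.9 in Col-0. Its level at 10 d was higher than in the explant by at least 8.86 in tanmei and by 4.67 in Col-0. AT1G28460, the code of AGL59 in a stretch of low Ct, had a Ct of 24.7, 31.0 and 31.0 in tanmei and 24.3, 26.0 and 25.9 in Col-0, a change at 5 d of -5.19 in tanmei and -2.01 in Col-0.

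From 5 d to 10 d the largest gain was 4.96 in tanmei, at AT4G36590, the code of AGL40, and 4.86 in Col-0, at AT5G27580, the code of AGL89, which also gained 3.97 in tanmei. AT5G27580 had a Ct of 35.3, 36.9 and 32.8 in tanmei and 28.2, 34.7 and 28.8 in Col-0, with its latest value at 5 d in both. AT5G27090, the code of AGL54, had a Ct of 29.2, 28.7 and 33.9 in tanmei, against 29.8, 29.8 and 29.1 in Col-0. Its level in tanmei changed by 1.56 from 0 d to 5 d and by -5.25 from 5 d to 10 d, against -0.37 and -0.27 in Col-0.

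**Figure D4:**
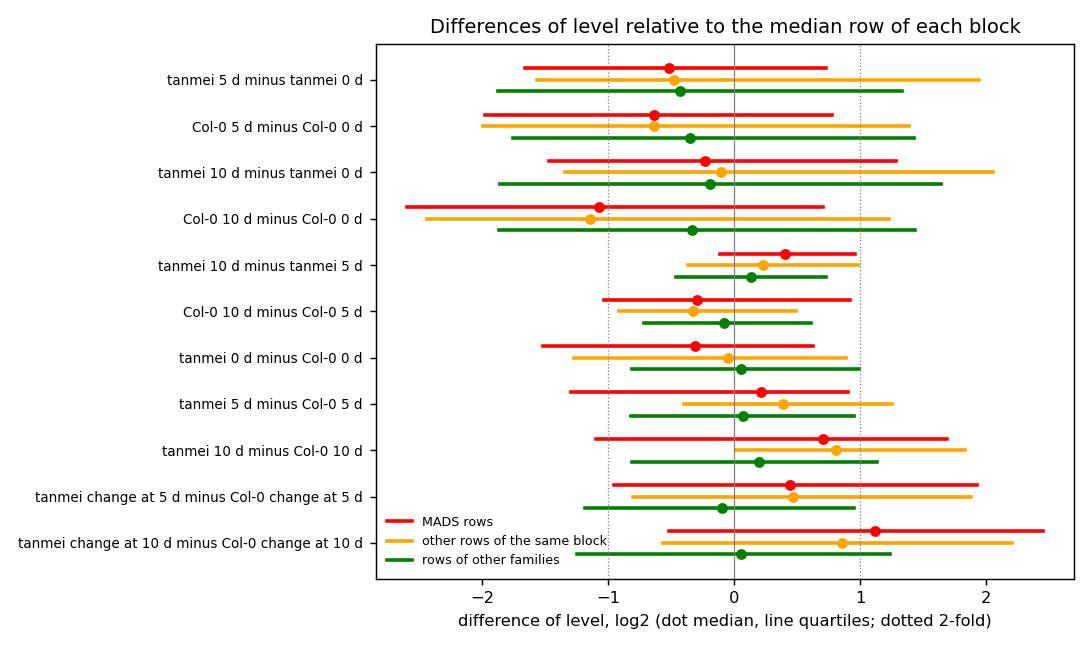
Median (dot) and quartiles (line) of the difference of level, in log2 units relative to the block median, for each of the 9 comparisons and 2 differences of change, in MADS rows, the other rows of the block and rows of other families. The MADS median lies farthest from that of the block's other rows in the difference of change at 10 d (1.12 against 0.86), and dotted lines mark 2-fold.

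Explants were compared to see how the genotypes differed before culture. In tanmei explants 18 of 97 MADS rows were higher than in Col-0 explants (18.6%, against 24.6% of all rows) and 34 lower (35.1%, against 22%), with a median of -0.31, against -0.05 for the block's other rows and 0.05 for rows of other families. Past 10-fold were 4 higher and 12 lower (6.33% and 5.55% of all rows). The negative median held with each centring tried, at -0.31 with the whole table, -0.85 with the block's other rows and -0.54 with UBQ. AT5G27580 had the lowest difference among rows with a Ct in both explants (-8.00), followed by AT1G17310 (-6.46) and AT4G36590 (-4.65).

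At 5 d, 24 of 99 rows were higher in tanmei than in Col-0 (24.2%, against 24.1% of all rows) and 28 lower (28.3%, against 22.1%), median 0.22, which turns to -0.21 with the whole table as centre and to -0.60 with UBQ. Past 10-fold were 7 higher and 9 lower (3.76% and 5.26% of all rows). At 10 d, 40 of 98 were higher (40.8%, against 28.7%) and 25 lower (25.5%, against 22.4%), median 0.70. Past 10-fold were 7 higher and 5 lower (6.03% and 5.32% of all rows). Of the other rows of the block 44.2% were higher at 10 d, and the family's counts turned to 24 higher and 35 lower with the whole table as centre and to 21 higher and 40 lower with UBQ. AT5G27810 had the highest difference at 10 d, 6.07, with a Ct of 34.8 in tanmei and 39.5 in Col-0. AT2G26320, the code of AGL33, had the lowest at 5 d, -5.83, with a Ct of 36.2 in tanmei and 29.8 in Col-0.

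Some rows differed between the genotypes in the same direction at all 3 times. Among the 77 rows with a Ct in all 6 groups, 10 were lower in tanmei by at least 2-fold at 0, 5 and 10 d (13.0%, against 5.7% of all rows in the table and 4.19% of the block's other rows). They were the FLC row, AT1G60920 with the less sure MAF4 link, AT5G27580, AT5G38620, AT1G28460, AT1G48150, AT1G69540, AT1G77950, AT2G26320 and AT3G61120. All 10 passed also with UBQ, under which 16 rows passed (20.8%, against 7.91% of the block's other rows). With Ct above 35 set to 35, 7 of the 10 passed (9.09%, against 3.72%), without AT5G27580, AT5G38620 and AT1G77950. AT1G69540, the code of AGL94, had a Ct of 30.9, 32.7 and 32.4 in tanmei and 28.1, 29.01 and 29.8 in Col-0. AT3G61120, the code of AGL13, had 32.6, 34.6 and 33.9 in tanmei and 30.3, 32.4 and 30.9 in Col-0. Higher in tanmei at all 3 times were 6 rows (7.79%, against 6.44% of all rows), near the share in the table. These were the AGL18 and AGL100 rows, AT5G27960, AT5G65060, AT1G65360 and AT4G11250, of which AT5G65060 and AT4G11250 did not pass with UBQ, and AT5G27960 and AT5G65060 did not pass with Ct above 35 set to 35. AT1G65360, the code of AGL23, had a Ct of 24.8, 27.0 and 26.9 in tanmei and 27.4, 28.3 and 28.0 in Col-0.

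The change in culture was then compared between the genotypes. At 5 d the tanmei change was above the Col-0 change by 2-fold or more in 39 of 102 rows (38.2%, against 24.8% of all rows) and below it in 26 (25.5%, against 27.4%). Past 10-fold were 14 above and 4 below (7.15% and 7.09% of all rows). The median was 0.45, and 36.2% of the other rows of the block were above. With the whole table as centre 33 rows were above and 29 below (median 0.03), and with UBQ 30 above and 31 below, the median turning to -0.13. At 10 d it was above in 56 of 103 (54.4%, against 30.3%) and below in 21 (20.4%, against 27.1%), with a median of 1.12, and 17 above and 4 below by 10-fold (9.14% and 7.46% of all rows). Of the other rows of the block 46.9% were above, with a median of 0.86. With UBQ the family counts at 10 d were 38 above and 30 below, median 0.28, and with only rows that had a Ct in all 4 groups they were 38 above and 19 below of 79.

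Across rows with a Ct in all 4 groups, the change in tanmei and the change in Col-0 had a Pearson r of 0.43 at 5 d (80 rows) and 0.50 at 10 d (79 rows). For the other rows of the block r was 0.77 (217 rows) and 0.76 (222 rows). Restricted to rows with a Ct below 35 in the 4 groups, r was 0.58 at 5 d and 0.59 at 10 d for MADS rows, and 0.66 and 0.70 for the other rows of the block. For these restricted rows the Spearman rank correlation was 0.67 and 0.51 for MADS rows, and 0.60 and 0.61 for the other rows of the block. At 5 d the lower value for MADS rows therefore did not hold by ranks. The comparisons share no samples, but all rows of a group come from the same sample, and MADS values are later. At 5 d, 20 of 80 rows were lower and 4 higher in both genotypes by at least 2-fold. A further 16 passed in tanmei alone, 22 in Col-0 alone, and 4 were higher in tanmei and lower in Col-0. Of the block's 217 other rows, 61 were lower and 39 higher in both, 33 passed in tanmei alone and 46 in Col-0 alone. Of 1557 rows of other families, 434 were lower and 301 higher in both, 232 passed in tanmei alone and 212 in Col-0 alone. In the stretches of low Ct r was 0.77 at 5 d over 19 rows, against 0.39 over the 61 other MADS rows.

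**Figure D5:**
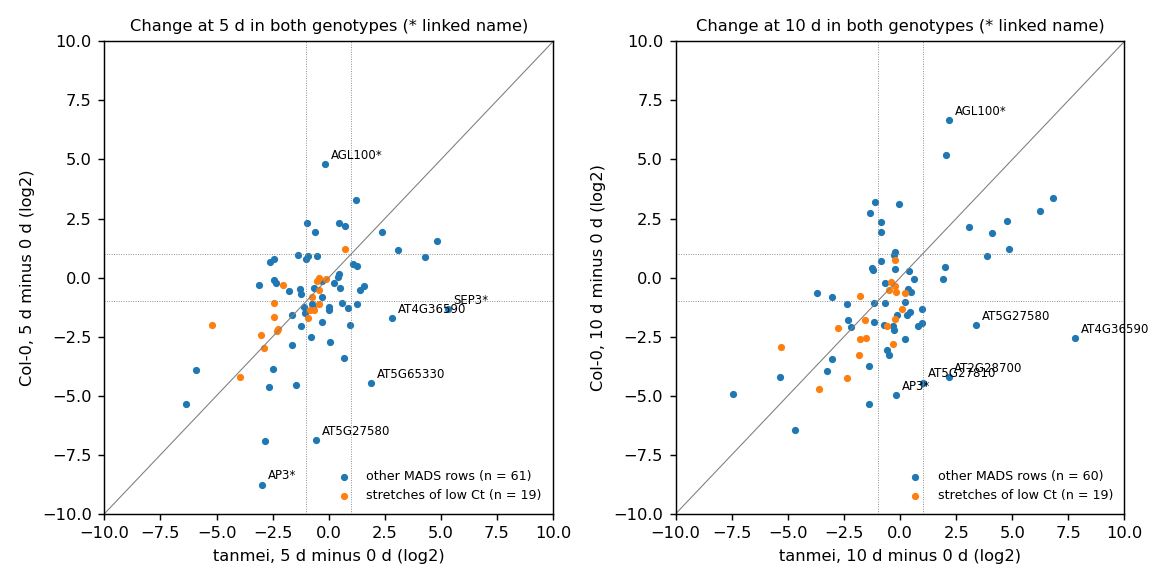
Change of level from the explant in tanmei (horizontal axis, log2) against Col-0 (vertical axis, log2) at 5 d and 10 d, for MADS rows with a Ct in the 4 groups; the diagonal marks equal change, dotted lines 2-fold, and an asterisk marks a linked gene name. Rows of the stretches of low Ct (orange) lie closer to the diagonal at 5 d than the other rows (r of 0.77 and 0.39), and SEP3, AP3, AT5G27580 and AT4G36590 are among those farthest from it.

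Leaving out the 23 rows of those stretches changed how the family stood to its block. The median change at 5 d was then -0.29 in tanmei and -0.46 in Col-0, and at 10 d -0.03 and -1.02. In the 23 rows alone, 2 of 22 were higher and 10 lower in tanmei at 5 d, and 2 of 22 higher and 13 lower in Col-0, with medians of -0.89 and -1.24. Without them the tanmei minus Col-0 difference had a median of -0.35 at 0 d, 0.29 at 5 d and 0.72 at 10 d, with 16 rows higher and 29 lower, 24 and 21, and 34 and 21. The difference of change had a median of 0.68 at 5 d and 1.40 at 10 d. The family median minus that of the block's other rows was then 0.54 for the difference of change at 10 d, 0.31 for Col-0 from 5 d to 10 d and -0.31 for explants, against 0.26, 0.04 and -0.26 with them. Of the 58 other rows with a Ct in all 6 groups, 7 were lower and 6 higher in tanmei at all 3 times, and the median range of a row was 3.99.

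By deposited code, which is unsure for single rows, 38 rows belong to the MIKCc class, 6 to MIKC*, and 23, 18 and 15 to the type I alpha, beta and gamma classes, and 5 are unlisted. The median over rows of the mean Ct was 35.6 for MIKCc codes, 28.6 for MIKC*, and 32.3, 30.9 and 33.2 for the alpha, beta and gamma codes. Since 0 of the 26 linked MADS genes lay on the row with their own code, no changes are given by class or role of the deposited code.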

How the data were processed

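Transcript levels were measured by quantitative RT-PCR with SYBR Green on a platform of primer pairs for TF genes, in 1 sample for each of 6 groups. The deposited Ct values are the means that the authors took over up to 3 replicates, 1 column per group, and a row may lack a Ct. Aligner and genome build do not apply. A second deposited table holds only fold changes between groups computed by the authors and was not used. No replicate values, primer efficiencies or sequences were used, so no SD or p-value is given.

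Levels were computed as the median Ct of the row's block minus its Ct, with no Ct set to 40. The block is one of 5 equal runs of rows, all 105 MADS rows lying in block 4. Rows with no Ct in any group of a comparison were left out of it. A row counted as higher or lower from 2-fold, and also from 10-fold. Changes from the explant share the explant sample within a genotype. Python 3.11.15, numpy 2.4.6, pandas 2.3.3, scipy 1.17.1 and matplotlib 3.10.9 were used.

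Deposited codes were compared with the study's table of genes changed in Col-0, whose levels are relative to UBQ. Of its 729 genes 638 were linked to a row, at a root mean square difference under 1 cycle and with the next row worse by 0.5 cycles, and 58 of them had the same code. Only the link and the offset of UBQ were taken from that table. Linking and counting were tested on simulated data.

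The family rows and the gene lists were chosen with earlier results of these data known. Named rows were those with the 3 highest and 3 lowest differences in each comparison, the 5 highest and lowest mean levels, rows with a Ct in 1 genotype or none, role examples and genes that the study names. Rows lower in tanmei at all 3 times and AT1G29960, AT1G65360, AT1G69540 and AT3G61120 were named after their values were seen. Alternatives were centring on the table median, only rows with every Ct, and a limit of 35 cycles. Centring on the block's other rows, centring on UBQ, a Ct below 40 for detection and leaving out the stretches of low Ct were added after the data were seen, as were the settings tried for rows with opposite changes and rows apart at all 3 times.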

Additional observations from a re-analysis of the deposited data

Results flagged for a closer look

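In 9 rows the change from the explant passed 2-fold in opposite directions in tanmei and Col-0. At 5 d, 4 of 80 MADS rows were higher in tanmei and lower in Col-0, and 0 the reverse. For the block's other rows these counts were 9 and 3 of 217, and for rows of other families 43 and 26 of 1557, so the MADS share was near theirs. At 10 d the counts were 4 and 2 of 79 MADS rows, 8 and 3 of 222 of the block, and 39 and 27 of 1568 of other families. None of these differences was tested, since each group has 1 averaged value. With UBQ, AT5G65330, AT5G27810 and AT2G28700 were the 3 rows that still did so, and the other 6 did not. With Ct above 35 set to 35, 6 rows did so, without AT5G65330, AT2G34440 and AT2G28700. With the table median and with the median of the block's other rows, 7 rows did so, without AT2G34440 and AT5G27810. At 5 d AT1G71692, linked to SEP3, changed by 5.32 in tanmei and -1.33 in Col-0, a difference of 6.65. AT5G65330, the code of AGL78, changed by 1.88 in tanmei and -4.47 in Col-0, a difference of 6.36. AT4G36590, the code of AGL40, had a difference of 4.55 at 5 d. At 10 d the difference was 10.36, its change being 7.80 in tanmei and -2.56 in Col-0. Its Ct was 39.8, 38.0 and 32.9 in tanmei and 36.0, 37.4 and 37.2 in Col-0. AT2G34440, the code of AGL29, differed by 2.40 at 5 d, with changes of 1.27 in tanmei and -1.13 in Col-0.

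At 10 d AT2G28700, the code of AGL46, changed by 2.16 in tanmei and -4.21 in Col-0, a difference of 6.37. AT5G27810 changed by 1.02 in tanmei and -4.45 in Col-0, a difference of 5.47, and AT5G27580 changed by 3.40 in tanmei and -2.02 in Col-0, a difference of 5.42. The opposite sign was seen in AT3G18650, linked to AGL12, with -1.14 in tanmei and 3.22 in Col-0 (difference -4.36). It was also seen in AT5G13790, with -1.34 in tanmei and 2.72 in Col-0 (difference -4.06). AT5G13790 carries the code of AGL15 but is not taken to measure it.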

How the results depend on the processing

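No paired analysis was possible because each group has 1 averaged column. Under the alternatives 114 summary values moved by less than the set margin (1.5 times for counts, 1 on the log2 scale for levels) and 48 by more. With only rows that had every Ct, the rows higher by 2-fold were 14 in tanmei and 13 in Col-0 at 5 d, and 25 for the difference of change at 5 d. With Ct above 35 set to 35, higher rows were 12 (tanmei) and 8 (Col-0) at 5 d, 14 (Col-0) at 10 d, and 13 (tanmei) and 15 (Col-0) from 5 d to 10 d. Lower rows were then 22 at 5 d and 21 at 10 d in tanmei, and 5 (tanmei) and 14 (Col-0) from 5 d to 10 d. Between genotypes that limit gave 11 higher at 0 d, 13 higher and 14 lower at 5 d, and 11 and 13 below for the differences of change at 5 d and 10 d. Centring on the table median gave 13 lower in Col-0 from 5 d to 10 d, and 24 higher between genotypes at 10 d.

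The remaining alternatives were chosen after the data were seen. Centring on the block's other rows gave 23 higher and 38 lower between genotypes at 10 d. With UBQ, 40 were higher and 22 lower in tanmei and 53 and 18 in Col-0 at 5 d, 43 and 17 in tanmei and 48 and 24 in Col-0 at 10 d, and 21 and 40 between genotypes at 10 d. Leaving out the stretches of low Ct set the median level in Col-0 at 10 d to -3.07. The other median levels that moved were, at 0, 5 and 10 d with the table median, -7.15, -7.50 and -6.62 in tanmei and -6.42, -6.94 and -5.29 in Col-0, and with a Ct in all 6 groups, -0.060, -0.75 and -0.13 in tanmei and 0.86, -0.92 and 0.66 in Col-0. A Ct below 35 was found in 56 and 63 rows in tanmei at 5 d and 10 d, and in 60 and 62 in Col-0 at 0 d and 5 d.

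Among values of single rows 1406 kept their side of 2-fold, 103 passed it newly, 73 no longer passed, and 20 past 2-fold changed sign. With the limit of 35 the tanmei minus Col-0 difference at 5 d became 0.24 for AT5G27580, 0.40 for AT1G77950 and 0.53 for AT2G14210, and at 0 d -0.90 for AT2G26880. The tanmei changes at 5 d and 10 d became 0.70 and 0.56 for AT5G38620, and 0.29 and 0.15 for AT2G14210. With UBQ the tanmei minus Col-0 difference at 10 d became -0.052 for AT5G37415 and -0.012 for AT5G51870. The Col-0 change at 5 d became 0.63 for AT5G41200, 0.63 for AT1G59810, 0.36 for AT1G60880, 0.41 for AT1G71692, 0.023 for AT4G36590 and 0.51 for AT5G13790. The Col-0 change at 10 d became 0.14 for AT1G60880, 0.83 for AT2G14210, 0.13 for AT2G26320 and 0.90 for AT3G54340. For values changed by a limit or a centre, no further cause was tested.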
